A study of Mus musculus with 34 samples.

Results

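The 9 genes described here are the main FGF ligands and receptors of the mouse limb bud, taken by name from the 22040 protein-coding genes of an RNA-seq table. They comprise the ridge ligands *Fgf8*, *Fgf4*, *Fgf9* and *Fgf17*, the mesenchyme ligands *Fgf10* and *Fgf18*, and the receptors *Fgfr1*, *Fgfr2* and *Fgfr3*. All 9 were found, and 8 of them passed the filter on low values and were tested, *Fgf4* being the exception. The libraries came from limb bud cells at E11.5, with 3 labelled *Hnrnpk* WT and 3 labelled *Hnrnpk* CKO. CKO embryos were *Prrx1-Cre;Hnrnpk fl/fl*, in which a Cre driven by *Prrx1* sequences removes floxed exons of *Hnrnpk*, the gene of an RNA- and DNA-binding protein that prefers runs of C. The sources used here do not say whether WT embryos carried floxed alleles, how many embryos made up a library, or in what proportion forelimb and hindlimb buds were mixed. *Prrx1-Cre* is known to act in limb mesenchyme, to be incomplete in the hindlimb and to be inactive in the ectodermal ridge, the source of the ridge ligands.

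Fibroblast growth factors are secreted proteins that bind receptor tyrosine kinases together with heparan sulphate and signal through RAS and ERK. In the limb bud, FGF10 from the mesenchyme acts on the IIIb form of FGFR2 in the ectoderm, and the apical ectodermal ridge at the tip of the bud answers with FGF8, joined later by FGF4, FGF9 and FGF17. These ridge ligands act back on FGFR1 and the IIIc form of FGFR2 in the mesenchyme, which keeps *Fgf10* on and the bud growing. FGF18 and FGFR3 are best known from the later skeleton, where they act on cartilage and bone cells.

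The reads on the listed genes numbered between 17143052 and 24627747 per library, as recovered from the FPKM. *Hnrnpk* was at 193, 195 and 185 FPKM in WT replicates 1, 2 and 3 and at 127, 142 and 135 FPKM in CKO replicates 1, 2 and 3. The CKO range lay wholly below the WT range, at 0.706 of the WT mean. The difference did not pass the threshold in limma (adjusted *p* = 0.334, or 0.0575 with the replicate number as a block). A gene that does not pass in this fit is thus not shown to be unchanged. The FPKM values also count exons outside the deleted part. Efficient loss of Hnrnpk in E11.5 CKO limb buds was reported by the study from western blot and qPCR. Replicate 1 of both groups stood apart from the other 4 libraries on the first principal component, which held 52.6% of the variance, so the members and the pathway lists are also given for replicates 2 and 3 alone. All 12 limb mesenchyme markers and all 18 ectoderm and ridge markers were above 0 in every library, so both layers of the limb bud were present in each. Red blood cell markers took 11.9% to 20.8% of the summed FPKM in 4 libraries and 32.7% and 23.7% in CKO replicates 2 and 3.

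In WT limb buds the levels, as FPKM and so per length of the gene, spanned a wide range. *Fgfr1* was highest at 30.2 ± 1.23 (mean ± SD, n = 3). It was followed by *Fgf8* at 8.14 ± 2.17, *Fgf18* at 6.53 ± 3.36, *Fgfr2* at 6.02 ± 0.256 and *Fgf10* at 5.80 ± 0.644. The neighbours among these last 4 genes had overlapping ranges over the WT libraries and did not differ beyond their spread. *Fgfr3* at 2.48 ± 0.589, *Fgf9* at 1.45 ± 0.495, *Fgf17* at 0.581 ± 0.163 and *Fgf4* at 0.212 ± 0.178 came below them, each with WT values apart from those of its neighbours in the order. In CKO limb buds *Fgfr1* was again highest at 28.8 ± 5.83 and *Fgf8* next at 8.98 ± 1.61. *Fgf18* came below *Fgf10* there, at 3.37 ± 0.424 against 5.97 ± 0.874.

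None of the 8 members tested differed between CKO and WT at an adjusted *p* value of 0.05 in limma on log2(FPKM + 0.1), where 8 of all 12305 genes tested did (0.0650%). One member, *Fgfr2*, had an unadjusted *p* value under 0.05, which 8.31% of all genes had. With the replicate number as a block, again 0 of 8 members passed, against 2.81% of all genes. *Fgfr2* was the 1 member whose CKO values all lay below the WT values, as for 8.86% of all genes, and *Fgf9* was the 1 member whose CKO values all lay above them, as for 5.63% of all genes. In the other 6 the groups overlapped. In replicates 2 and 3 alone, 3 of 8 members (*Fgf18*, *Fgfr2* and *Fgfr3*) were lower in CKO at an adjusted *p* value of 0.05, against 8.00% of all genes, and 0 of 8 were higher, against 7.05%. That fit has few libraries and was set up after replicate 1 was seen to stand apart. Its *p* values, here and below, rest largely on variance shared across genes, so a small one is not a measure of strong evidence. RNA from whole limb buds does not tell fewer cells of a type apart from less RNA per cell.

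**Figure D1:**
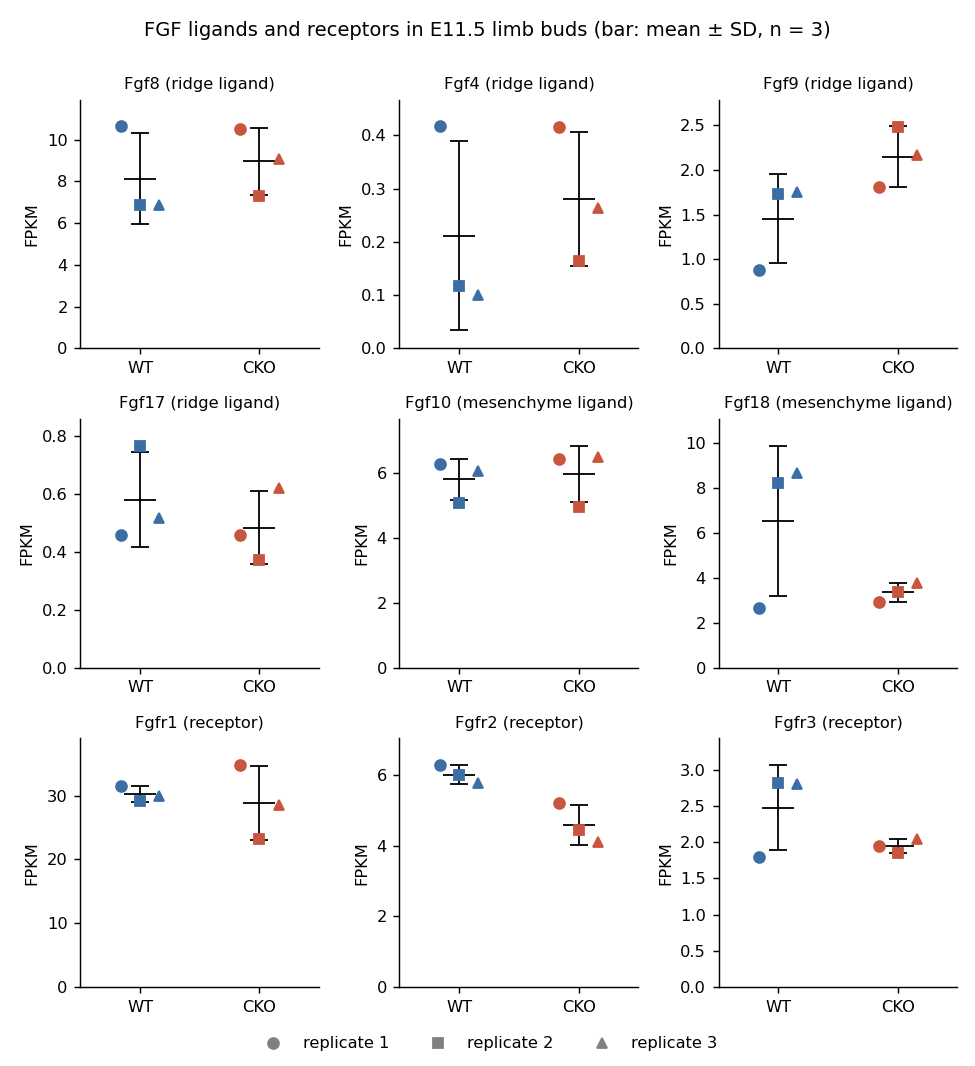
FPKM (vertical axes, from 0) of the 9 genes in WT (blue) and CKO (red) libraries, with a point for each replicate and bars for the mean ± SD of 3 libraries. The 3 CKO points of Fgfr2 lie below and those of Fgf9 above all WT points, and the replicate 1 points of Fgf18 lie together near 3 FPKM in both groups.

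The 250 bases before a RefSeq transcription start are shown for 4 members, *Fgf10* because the study aimed a guide at this gene, *Fgfr2* and *Fgf9* because their groups did not overlap, and *Fgf18* because its fold difference was the largest of the members tested. The windows of *Fgf10*, *Fgf9* and *Fgfr2* lie inside the gene spans given below, so starts further upstream are also annotated for them. The sequences are from RefSeq (GRCm38.p6), 5′ to 3′ on the strand of the gene, in lower case with every run of CCCC or its reverse complement GGGG in capitals. RefSeq windows were at hand for 6 of the 9 members.
Fgf10 chr13:118714449-118714698, plus strand: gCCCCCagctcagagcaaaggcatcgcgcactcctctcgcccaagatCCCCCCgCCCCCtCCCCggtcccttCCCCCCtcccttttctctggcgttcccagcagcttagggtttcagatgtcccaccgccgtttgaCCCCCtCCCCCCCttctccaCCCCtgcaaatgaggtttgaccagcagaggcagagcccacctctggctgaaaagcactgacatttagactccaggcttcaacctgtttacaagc
Fgf18 chr11:33147401-33147650, minus strand: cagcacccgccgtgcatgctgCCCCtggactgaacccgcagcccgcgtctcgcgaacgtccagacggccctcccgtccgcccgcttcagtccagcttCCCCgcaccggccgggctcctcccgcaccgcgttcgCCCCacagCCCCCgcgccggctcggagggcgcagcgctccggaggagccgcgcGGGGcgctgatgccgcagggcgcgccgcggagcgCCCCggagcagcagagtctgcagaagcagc
Fgfr2 chr7:130266809-130267058, minus strand: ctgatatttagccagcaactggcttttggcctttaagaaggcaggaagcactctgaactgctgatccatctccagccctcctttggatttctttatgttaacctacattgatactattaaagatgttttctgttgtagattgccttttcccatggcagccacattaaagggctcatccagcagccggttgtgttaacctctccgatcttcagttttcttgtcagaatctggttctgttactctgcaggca
Fgf9 chr14:58072436-58072685, plus strand: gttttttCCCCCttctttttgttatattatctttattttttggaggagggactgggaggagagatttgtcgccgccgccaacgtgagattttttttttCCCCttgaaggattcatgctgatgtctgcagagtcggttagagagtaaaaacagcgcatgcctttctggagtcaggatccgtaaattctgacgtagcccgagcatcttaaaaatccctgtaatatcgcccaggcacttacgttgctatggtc
The *Fgf10* window held 42 bases in such runs, in 8 runs of C and 0 runs of G, and 97.0% of the 32851 mouse windows of the same length held fewer. The *Fgf18* window held 25 bases in 5 runs of C and 1 run of G, with fewer in 83.7% of windows. The *Fgf9* window held 9 bases, which is the median of all windows, and the *Fgfr2* window held 0. A run of either kind was present in 83.1% of all windows, so its presence is common, and the letters say nothing about binding. The study reported Hnrnpk binding at the *Fgf10* promoter in WT limb buds and aimed a repressor at the bound site in cultured limb bud cells. Its guide is shown to place it relative to this window, with the PAM in capitals.
Fgf10-sgRNA chr13:118715313-118715332, minus strand: gaagggtaagacctgctgcgAGG
It had 1 exact match on the chromosomes of GRCm38, between 614 and 633 bases downstream of the start that ends the window, in an exon annotated as untranslated sequence of *Fgf10* and overlapping the antisense gene *Gm16263*. In cultured limb bud cells the study reported lower *Fgf10* with this guide, and also after Cre removed *Hnrnpk*. The cells treated with the guide are not part of the libraries described here.

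*Fgf8* (chr19:45736798-45742915, minus strand) encodes the main ligand of the ridge. It was at 10.6, 6.87 and 6.89 FPKM in WT replicates 1, 2 and 3 and at 10.5, 7.31 and 9.10 FPKM in CKO replicates 1, 2 and 3. Replicate 1 was the highest library in each group, and the groups overlapped. The CKO mean was 10.3% above the WT mean, and the log2 difference of 0.16 (SE 0.21) had a 95% confidence interval from 0.793-fold to 1.56-fold (limma, adjusted *p* = 0.890). Between 189 and 293 reads stood behind each value. The values cover all limb buds of a library, so a difference within the forelimb or the hindlimb alone could not be read from them. At E11.5 the study reported less *Fgf8* in CKO limb buds by qPCR. By in situ hybridization it hardly detected *Fgf8* in the CKO forelimb at that stage. A decrease was not seen in these FPKM, and the reason was not tested.

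*Fgf9* (chr14:58070547-58112720, plus strand) encodes a ligand that the ridge makes alongside FGF8. It was at 0.883, 1.73 and 1.76 FPKM in WT and at 1.81, 2.48 and 2.16 FPKM in CKO replicates 1, 2 and 3. The CKO libraries were all above the WT libraries, although the lowest CKO value was close to the highest WT value. The CKO mean was 47.9% above the WT mean, with a log2 difference of 0.58 (SE 0.27) that did not pass the threshold (limma, adjusted *p* = 0.635, or 0.0950 with the replicate block). The difference was positive at each replicate number, at 0.96, 0.50 and 0.29 on the log2 scale for numbers 1, 2 and 3.

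*Fgf17* (chr14:70636203-70642268, minus strand), expressed in the distal ridge, was at 0.460, 0.767 and 0.516 FPKM in WT and at 0.458, 0.371 and 0.621 FPKM in CKO replicates 1, 2 and 3. The groups overlapped, and the log2 difference of -0.22 (SE 0.27) was smaller than its standard error (limma, adjusted *p* = 0.881). *Fgf4* (chr7:144847367-144865243, plus strand), a ligand of the posterior ridge that depends on SHH from the mesenchyme, was at 0.417, 0.118 and 0.1005 FPKM in WT and at 0.415, 0.163 and 0.262 FPKM in CKO replicates 1, 2 and 3. Its values rest on 24, 9 and 7 reads in WT and 24, 10 and 20 reads in CKO, and it was under the filter on low values. Replicate 1 had the highest *Fgf4* value in both groups, at nearly the same level. In a fit without the filter its log2 difference was 0.38 (SE 0.42; limma, adjusted *p* = 0.867).

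Summed over the 4 ridge ligands, the level was 12.4, 9.48 and 9.27 FPKM in WT and 13.2, 10.3 and 12.1 FPKM in CKO replicates 1, 2 and 3 (exact two-sided permutation test, *p* = 0.3, where 0.1 is the smallest *p* that 3 against 3 libraries allow). *Fgf8* made up between 70.8% and 85.8% of this sum in each library. The 18 ectoderm and ridge markers, genes such as the keratins *Krt5* and *Krt14* and the epithelial regulator *Trp63*, summed to 60.9, 89.8 and 106 FPKM in WT and 70.1, 114 and 109 FPKM in CKO replicates 1, 2 and 3. None of these markers differed at an adjusted *p* value of 0.05, and 2 (*Krt15* and *Perp*) were higher in CKO in replicates 2 and 3 alone, against 7.05% of all genes. The log2 difference was positive for 16 of 18, while it was negative for 49.1% of all genes tested. The median was 0.26 against 0.0048 over all genes tested. The summed markers were lowest in replicate 1 of each group, where *Fgf8* was highest. Their part in the ligands' values was not tested, but each ligand was also set against them within its library.

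Relative to the summed ectoderm and ridge markers, *Fgf9* was higher in every CKO library than in any WT library, with log2 ratios of -5.42 ± 0.20 in CKO and -5.80 ± 0.17 in WT (mean ± SD, n = 3; exact permutation test, *p* = 0.1). With the median over the markers in place of their sum, the groups overlapped (exact permutation test, *p* = 0.3). The ratio of *Fgf8* to the markers overlapped between the groups, at -3.41 ± 0.62 in CKO and -3.37 ± 0.76 in WT, and the sign of its difference turned with 1 library left out, from -0.39 without CKO replicate 1 to 0.39 without WT replicate 1. The ratios of *Fgf17* and *Fgf4* overlapped as well.

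**Figure D2:**
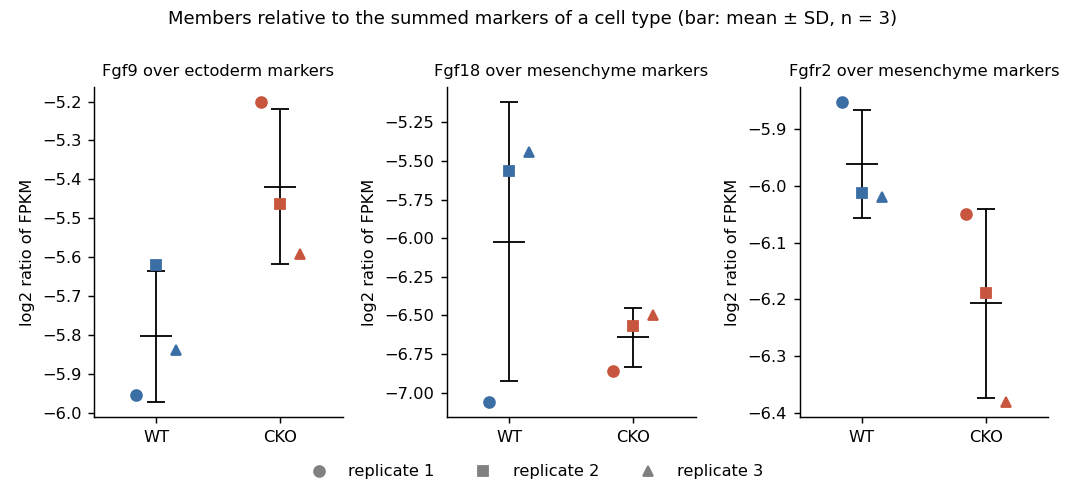
Log2 ratio of the FPKM of Fgf9 to the summed ectoderm and ridge markers, and of Fgf18 and Fgfr2 to the summed limb mesenchyme markers (vertical axes), in each WT (blue) and CKO (red) library, with the mean ± SD of 3 libraries. The CKO points lie above all WT points for Fgf9 and below them for Fgfr2, while for Fgf18 WT replicate 1 lies below all the CKO points.

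*Fgf10* (chr13:118669791-118792115, plus strand) encodes the mesenchymal ligand that induces and maintains the ridge. It was at 6.27, 5.07 and 6.07 FPKM in WT replicates 1, 2 and 3 and at 6.45, 4.96 and 6.50 FPKM in CKO replicates 1, 2 and 3. Replicate 2 was the lowest library in each group, and libraries of the same number lay within 0.10 of each other on the log2 scale. The log2 difference was 0.04 (SE 0.15), with a 95% confidence interval from 0.799-fold to 1.31-fold (limma, adjusted *p* = 0.971). From in situ hybridization and qPCR the study reported decreased *Fgf10* in E11.5 CKO limb buds. Such a decrease was not seen in these FPKM, and the reason was not tested. Its sign turned with the scaling, to -0.07 when libraries were scaled without the red blood cell markers, and when some single libraries were left out. That scaling also moved the median log2 difference of all genes tested, from 0.0048 to -0.10. The 12 limb mesenchyme markers summed to 369, 394 and 381 FPKM in WT and 352, 331 and 351 FPKM in CKO replicates 1, 2 and 3, with all CKO sums below all WT sums. 0 of these 12 markers passed the threshold, and 1 (*Twist2*) was lower in CKO in replicates 2 and 3 alone, against 8.00% of all genes. The log2 difference was negative for 11 of 12, against 49.1% of all genes tested. Relative to this sum, the log2 ratio of *Fgf10* was -5.84 ± 0.17 in CKO and -6.02 ± 0.21 in WT, and the groups overlapped (mean ± SD, n = 3; exact permutation test, *p* = 0.3).

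*Fgf18* (chr11:33117430-33147400, minus strand) encodes the mesenchyme ligand with the widest spread among WT libraries of the 8 members tested. It was at 2.66, 8.24 and 8.69 FPKM in WT replicates 1, 2 and 3 and at 2.93, 3.39 and 3.78 FPKM in CKO replicates 1, 2 and 3. WT replicate 1 was the lowest of all 6 libraries, and WT replicates 2 and 3 were far above the other 4. The CKO mean was 0.516 of the WT mean, but with all libraries the log2 difference of -0.77 (SE 0.41) did not pass the threshold (limma, adjusted *p* = 0.695, or 0.0768 with the replicate block). Between libraries of the same number the log2 difference was 0.13 for number 1, -1.26 for number 2 and -1.18 for number 3. In replicates 2 and 3 alone it was -1.22 (limma, adjusted *p* = 6.1e-08), and without WT replicate 1 alone it was -1.31 (adjusted *p* = 0.070). The first of these *p* values rests on few libraries and on variance shared across genes, so its size is not a measure of strength. On reads recovered from the FPKM, limma voom with the replicate block gave -0.94 (adjusted *p* = 0.0203). On the deposited FPKM it passed only when both libraries numbered 1 were left out, and in none of the 6 fits that left out 1 library.

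**Figure D3:**
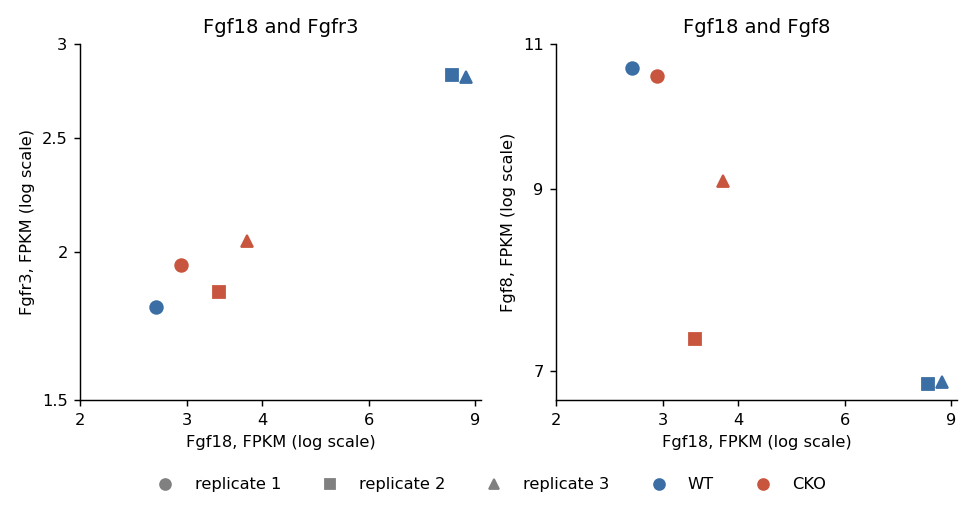
FPKM of Fgfr3 (left) and Fgf8 (right) against that of Fgf18 in the 6 libraries, all axes on log scales, with WT in blue, CKO in red and a marker shape for each replicate number. WT replicates 2 and 3 stand alone at high Fgf18 and Fgfr3 and low Fgf8, and WT replicate 1 lies just below the CKO libraries for Fgf18 and Fgfr3.

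Replicate 1 of WT also differed from WT replicates 2 and 3 in marker genes of other cell types. The 6 muscle precursor markers summed to 13.6 FPKM in WT replicate 1, to 28.1 and 25.9 FPKM in WT replicates 2 and 3, and to 25.6, 34.6 and 30.5 FPKM in CKO replicates 1, 2 and 3. The 6 neural crest and Schwann precursor markers summed to 3.31, 7.98 and 7.94 FPKM in WT and 6.61, 8.30 and 7.53 FPKM in CKO. WT replicate 1 was lowest for both lists, as it was for *Fgf18* and for the summed ectoderm and ridge markers. The 6 endothelial markers summed to 29.9, 20.9 and 23.3 FPKM in WT and 14.6, 24.2 and 21.8 FPKM in CKO replicates 1, 2 and 3. The 6 macrophage markers summed to 12.3, 14.4 and 18.8 FPKM in WT and 13.6, 22.7 and 16.7 FPKM in CKO, again with WT replicate 1 lowest. The part of these cell types in the *Fgf18* values was not tested.

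Among the receptors, *Fgfr1* (chr8:25513654-25575718, plus strand) is the main receptor of the limb mesenchyme. It was at 31.6, 29.2 and 30.0 FPKM in WT and at 34.8, 23.1 and 28.5 FPKM in CKO replicates 1, 2 and 3. The CKO libraries lay on both sides of the WT libraries, and the log2 difference was -0.09 (SE 0.16; limma, adjusted *p* = 0.921), or 0.06 without CKO replicate 2. The 95% confidence interval ran from 0.727-fold to 1.22-fold.

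*Fgfr2* (chr7:130162451-133123350, minus strand) encodes the receptor whose IIIb form receives FGF10 in the ectoderm and whose IIIc form serves the mesenchyme. The table gives 1 value for the gene, so the forms could not be separated. It was at 6.29, 5.999 and 5.78 FPKM in WT replicates 1, 2 and 3 and at 5.21, 4.44 and 4.11 FPKM in CKO replicates 1, 2 and 3. The CKO libraries were all below the WT libraries, and the difference had the same sign at each replicate number, at -0.27, -0.43 and -0.48 on the log2 scale for numbers 1, 2 and 3. The CKO mean was 0.762 of the WT mean, with a log2 difference of -0.39 (SE 0.13) and a 95% confidence interval from 0.618-fold to 0.941-fold before adjustment. After adjustment over all genes it did not pass (limma, adjusted *p* = 0.480, or 0.0927 with the replicate block). It passed with limma voom on recovered reads with the block (adjusted *p* = 0.0371), where 3.34% of the genes were called lower in CKO, and in replicates 2 and 3 alone (log2 difference -0.45, adjusted *p* = 0.0197). Relative to the summed mesenchyme markers, the log2 ratio of *Fgfr2* was -6.21 ± 0.17 in CKO and -5.96 ± 0.09 in WT, again with no overlap (mean ± SD, n = 3; exact permutation test, *p* = 0.1). Relative to the summed ectoderm and ridge markers the groups overlapped (exact permutation test, *p* = 0.3), while relative to the median over these markers they did not, with log2 ratios of 0.30 ± 0.21 in CKO and 0.99 ± 0.40 in WT (exact permutation test, *p* = 0.1). The span given for *Fgfr2* is that of the annotation, and it reaches far upstream of the RefSeq start at 130266808. In the annotation 314 exon bases of *Fgfr2* are shared with *Ctbp2* on the same strand, which leaves reads there uncertain.

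*Fgfr3* (chr5:33721674-33737068, plus strand) was at 1.80, 2.83 and 2.81 FPKM in WT and at 1.95, 1.85 and 2.04 FPKM in CKO replicates 1, 2 and 3. As for *Fgf18*, WT replicates 2 and 3 were high and WT replicate 1 lay just below the CKO libraries. The log2 difference was -0.30 (SE 0.20; limma, adjusted *p* = 0.752) with all libraries, and -0.51 (adjusted *p* = 0.0261) in replicates 2 and 3 alone. Its exons share 998 bases with *G630022F23Rik* on the opposite strand, and the counting is not stated to use strand, which also touches 123 bases of *Fgf10*, 164 bases of *Fgfr1* and 330 bases of *Hnrnpk*. *Fgfr1* made up 78.0% ± 1.44 of the summed *Fgfr1*, *Fgfr2* and *Fgfr3* level in WT and 81.3% ± 2.32 in CKO (mean ± SD, n = 3), *Fgfr2* made up 15.5% ± 0.493 and 13.1% ± 1.73, and *Fgfr3* made up 6.42% ± 1.63 and 5.62% ± 0.856. The groups overlapped in all 3 shares.

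**Figure D4:**
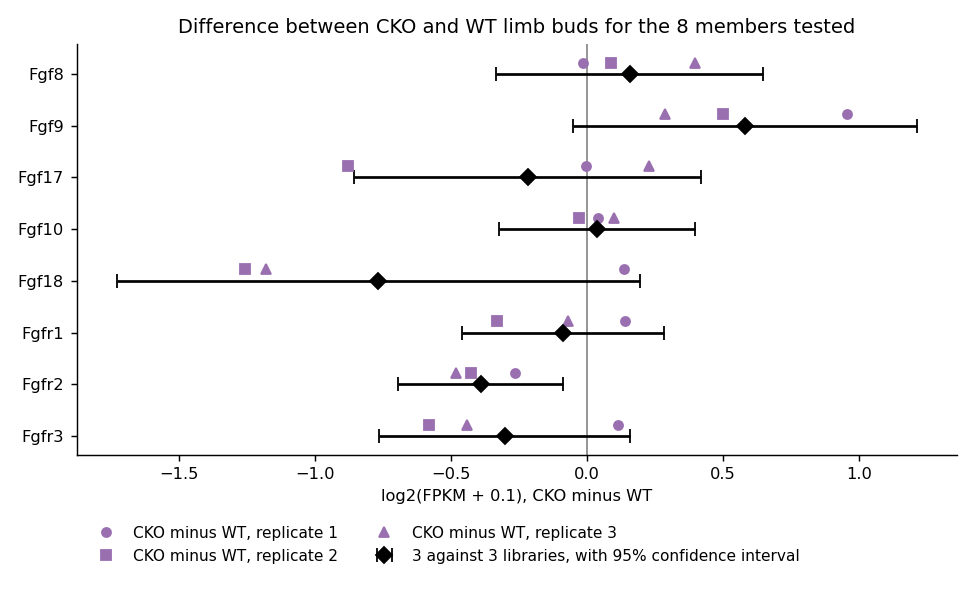
Difference between CKO and WT in log2(FPKM + 0.1) (horizontal axis) for the 8 members tested, as the fitted value of 3 against 3 libraries with its 95% confidence interval (black) and between libraries of the same replicate number (purple). The interval of Fgfr2 is the 1 that does not include 0, and for Fgf18 and Fgfr3 number 1 lies right of 0 while numbers 2 and 3 lie left of it.

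Across the 6 libraries the members did not vary as 1 group. On log2(FPKM + 0.1), *Fgf18* and *Fgfr3* had a Pearson correlation of 0.985, the highest among all pairs of the 8 members tested, and *Fgf8* and *Fgf18* had -0.83, the lowest. *Fgf10* had 0.73 with *Fgf8* and 0.72 with *Fgfr1*. These are descriptions over 6 libraries that share the setting apart of replicate 1 and the difference in genotype. Of all genes tested, those most like *Fgf18* were *Tox* and *Ebf1*, which encode transcription factors, and *Emilin3*, which encodes a matrix glycoprotein, with correlations of 0.996, 0.996 and 0.995. *Emilin3* was also among the 3 most like *Fgfr3* (0.99), with *Pnmal2* and *Zfp580*. Those most like *Fgf8* were *Shmt2*, an enzyme of mitochondrial one-carbon metabolism, *Emc1* and the chromatin protein gene *Hmga1*, with correlations of 0.997, 0.993 and 0.989, and those most like *Fgf10* were *Rundc1*, *Thoc3* and the Notch ligand gene *Jag2*, between 0.96 and 0.97. *Fgfr2* was most like *Sars2*, *Rfx5* and *Prtn3* (0.99), *Fgf9* most like *Rpl27-ps3*, *Sumf1* and *Zfp791* (0.99), *Fgf17* most like *Idua*, *Aldh7a1* and *Wdr34* (0.97 to 0.98), and *Fgfr1* most like *Lpcat4*, *Sh3bp1* and *Clasrp* (0.994 to 0.997).

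The other genes of the pathway were read from the same fit. Of the 16 other FGF ligands, 3 were tested (*Fgf2*, *Fgf11* and *Fgf13*), and 0 passed the threshold without or with the block. Among these 3, 0 passed in replicates 2 and 3 alone. The 16 together summed to between 4.22 and 6.24 FPKM in every library, which is near the level of *Fgf10* alone. Of the 9 other receptors and co-receptors, 7 were tested and 0 passed, with a median log2 difference of -0.04 against 0.0048 over all genes. *Flrt2*, whose product is a membrane protein that can bind FGF receptors, was at 4.79, 6.22 and 6.97 FPKM in WT and 3.98, 4.36 and 4.09 FPKM in CKO (limma, adjusted *p* = 0.446, or 0.0536 with the block). Its CKO values all lay below the WT values, as for 8.86% of all genes. In replicates 2 and 3 alone, where 8.00% of all genes were lower and 7.05% higher in CKO, *Flrt2* was lower (log2 difference -0.63, limma, adjusted *p* = 0.00132). *Flrt3*, which encodes a membrane protein of the same family, was higher there (0.47, adjusted *p* = 0.0215). *Flrt3* went the other way at number 1 (-0.15), and its groups overlapped. Over all libraries its log2 difference was 0.26 (SE 0.21, limma, adjusted *p* = 0.811).

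Of the 12 genes of heparan sulphate synthesis and editing, all were tested and 0 passed, while 1 passed as lower with the replicate block. This was *Sulf2*, a sulphatase that trims heparan sulphate outside the cell, at 72.4, 61.1 and 60.8 FPKM in WT and 54.7, 29.7 and 35.7 FPKM in CKO replicates 1, 2 and 3. Its log2 difference was -0.74 (SE 0.22; limma, adjusted *p* = 0.426, or 0.0102 with the block). *Sulf2* (log2 difference -0.90; limma, adjusted *p* = 1.1e-05) and its relative *Sulf1* (-0.54; adjusted *p* = 0.00527) were lower in replicates 2 and 3 alone, against 8.00% of all genes. *Sulf1* went the other way at number 1 (0.33), and its groups overlapped. Over all libraries its log2 difference was -0.25 (SE 0.50, limma, adjusted *p* = 0.927). The list's median over all libraries was -0.06. The 14 signal transducers described, among them the adaptors *Frs2* and *Grb2*, ran from -0.16 to 0.09 on the log2 scale, with a median of 0.0074, and 0 passed without the block, with it or in replicates 2 and 3 alone.

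Of the 10 feedback targets and inhibitors, genes that FGF signalling switches on, among them the Sprouty inhibitors and the ETS transcription factors *Etv4* and *Etv5*, 0 passed without the block and 1 passed as higher with it. This was *Spry4*, a Sprouty inhibitor of RAS signalling, at 9.80, 6.18 and 6.91 FPKM in WT and 13.6, 9.05 and 11.1 FPKM in CKO replicates 1, 2 and 3. Its CKO value exceeded its WT value at each replicate number, while the groups overlapped (limma, adjusted *p* = 0.552, or 0.0167 with the block). In the list 8 of 10 genes had a positive log2 difference, while 49.1% of all genes tested had a negative one. The list's median was 0.15 against 0.0048 over all genes. In replicates 2 and 3 alone, *Spry4* and *Dusp6*, an ERK phosphatase gene, were higher in CKO (limma, adjusted *p* = 0.00161 and 0.0217), against 7.05% of all genes.

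Of the 20 upstream regulators of limb FGFs, 0 passed without the block and 1 passed as lower with it. This was *Tbx5*, the forelimb T-box factor that switches on *Fgf10* when the limb bud starts, at 20.3, 19.1 and 19.2 FPKM in WT and 15.3, 7.30 and 9.58 FPKM in CKO replicates 1, 2 and 3. Its log2 difference was -0.93 (SE 0.24, limma, adjusted *p* = 0.358, or 0.00734 with the block), and no CKO value reached the WT range, as for 8.86% of all genes. *Pitx1* was the 1 gene of this list with all CKO values above all WT values, as for 5.63% of all genes. Its log2 difference was 0.25 (SE 0.12, limma, adjusted *p* = 0.663). The mix of forelimb and hindlimb buds in each library is not stated, and its part in these values was not tested. *Tbx5* was also lower in replicates 2 and 3 alone (log2 difference -1.19, limma, adjusted *p* = 9.2e-08), against 8.00% of all genes. *Isl1*, a hindlimb homeobox factor gene, was higher there (0.59, adjusted *p* = 0.0103), against 7.05%. *Isl1* went the other way at number 1 (-0.29), and its groups overlapped. Over all libraries its log2 difference was 0.30 (SE 0.24, limma, adjusted *p* = 0.814). *Tbx4*, a hindlimb T-box gene of the same list, had -0.0033 (SE 0.15, limma, adjusted *p* = 0.997) over all libraries. In replicates 2 and 3 alone *Tbx4* had -0.09 (adjusted *p* = 0.662), and its groups overlapped. Of the 6 regulators of *Fgfr2* splicing, 0 passed without the block, with it or in replicates 2 and 3 alone. The epithelial factors *Esrp1* and *Esrp2*, which favour the IIIb form, had log2 differences of 0.15 (SE 0.23) and 0.25 (SE 0.19). *Hnrnpa1* had -0.25 (SE 0.18, limma, adjusted *p* = 0.792), with all CKO values below all WT values, as for 8.86% of all genes.

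**Figure D5:**
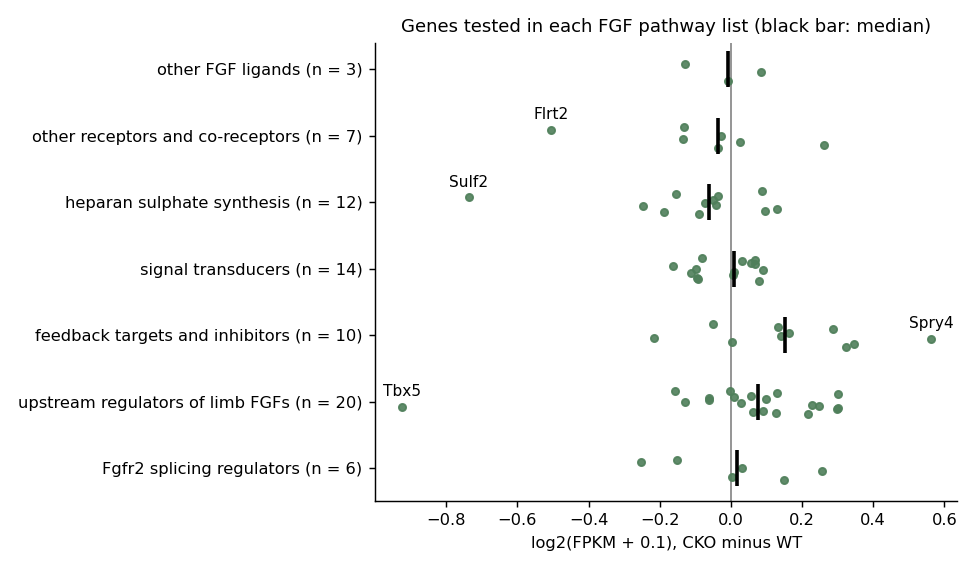
Difference between CKO and WT in log2(FPKM + 0.1) (horizontal axis) for each gene tested in 7 lists of the FGF pathway (rows, with the number of genes tested), with the median of each list as a black bar. The medians lie between -0.06 and 0.15, and Tbx5 and Sulf2 on the left and Spry4 on the right are the 3 genes that passed with the replicate block.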

How the data were processed

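Stranded mRNA libraries from limb buds at E11.5, 3 WT and 3 CKO, were analysed, and the series' other assays were not used here. The authors deposited FPKM for 22040 protein-coding genes, and the submitters' processing notes name HISAT2 2.1.0, featureCounts 1.6.3 and mm10 without roles. FPKM times merged exon length (GENCODE vM21, GRCm38) gave whole reads, within 0.1 reads, for 92.7% of genes in all libraries, which gave the depth. Reads on listed genes were 1.11 and 1.03 times the FPKM divisor in CKO replicates 2 and 3 and 0.947 to 0.968 times elsewhere, so a scaling between libraries is possible.

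Genes whose FPKM averaged 0.5 or more were compared on log2(FPKM + 0.1), which understates changes of low genes, with limma 3.58.1 (lmFit, eBayes with trend; R 4.3.3) and Benjamini-Hochberg adjustment over 12305 genes. The fit was also run on simulated data, with changes larger than the members' differences over all libraries. That run does not tell how the fit performs at the members' sizes. Marker ratios were compared by exact permutation tests. Libraries of the same replicate number deviated together (correlation across genes 0.64, 0.44 and 0.27 for numbers 1, 2 and 3), so the numbers were taken to pair them, although the crossed pairs, WT replicate 2 with CKO replicate 3 and WT replicate 3 with CKO replicate 2, reached 0.49 and 0.31. Numbers 2 and 3 were thus not told apart from the crossed pairing, on which the block's calls were not recomputed, and no source says what a number stands for. Alternatives were other pseudocounts, filters and scalings, eBayes without trend, the block, voom on recovered reads, and libraries left out.

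The members and lists were chosen with earlier results of these data known. Named genes were the members, list genes past the threshold without or with the block or else up to 4 with the smallest *p* (some given only as counts), the 3 genes most correlated with each member, and *Hnrnpk*. *Dusp6*, *Flrt3*, *Sulf1*, *Isl1*, *Pitx1*, *Tbx4*, *Krt15*, *Perp* and *Twist2* were named after their values were seen, as were list genes given as examples. Some genes of the signal transducer list are not reported here.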

Additional observations from a re-analysis of the deposited data

How the results depend on the processing

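The log2 differences of the 8 members tested kept their sign in every alternative, except *Fgf10*, which was -0.068 when libraries were scaled without red blood cell markers and ran from -0.06 to 0.16 with 1 library left out (-0.057 if WT replicate 2 was dropped, -0.024 if it was CKO replicate 1 and -0.030 if it was CKO replicate 3), and *Fgfr1*, which ran from -0.23 to 0.060 (the latter without CKO replicate 2). With 1 library left out, *Fgf8* ran from 0.03 to 0.36, *Fgf9* from 0.28 to 0.74, *Fgf17* from -0.38 (without CKO replicate 3) to -0.03 (without WT replicate 2), *Fgf18* from -1.31 to -0.48, *Fgfr2* from -0.48 to -0.32 and *Fgfr3* from -0.51 to -0.20, and 0 members were called in each of these 6 fits. The number of members called was 2 with voom on recovered reads and the replicate block and 3 in replicates 2 and 3 alone, and 0 in all other alternatives.

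Over all genes, 7 were called higher and 1 lower in CKO. The replicate block raised this to 139 higher and 207 lower, and changed no call among the members. The counts were 199 higher and 368 lower with voom and the block, and 867 and 984 in replicates 2 and 3 alone, which leaves fewer samples. They were 4 higher and 0 lower with scaling without red blood cell markers, which moved the median log2 difference of all genes to -0.10, 13 higher with quantile normalization, and 0 lower without a filter. With 1 library left out they ran from 1 to 10 higher and from 0 to 13 lower. Among list genes, *Spry4*, *Sulf2* and *Tbx5* passed with the block, and also in replicates 2 and 3 alone. Depth limits *Fgf4*, which rests on 7 to 24 reads, and 3 libraries a group limit exact tests to *p* = 0.1.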
